A study of Homo sapiens with 4 samples.

Results

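VEGFA, ADM and their partners in oxygen sensing by the hypoxia-inducible factors (HIFs) were followed through 4 one-colour arrays of HepG2 cells, a human hepatocellular carcinoma line. The members are VEGFA, VEGFB, VEGFC, ADM, HIF1A, EPAS1, EGLN1, EGLN3, BNIP3 and NDRG1. They were found by the gene symbols that the platform annotation gives to the probes, which picked 15 of 26423 probes and 10 of 17778 named genes. VEGFA and ADM were chosen by their higher signal with berberine in these same arrays, so every fold change of a member below is a description, with no p-value. The 2 berberine samples came from cells given 26.95 µM of this plant alkaloid for 24 hours, and the 2 control samples from cells without it. All 4 were grown in DMEM with serum and antibiotics. The samples' description field speaks instead of 48 hours of induced differentiation, with 13.47 µM berberine in the treated samples, and this conflict was not resolved. Nothing in the labels places the replicates in separate cultures, so the spread between them may be technical.

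HIFs are transcription factors made of an oxygen-regulated alpha subunit, encoded by HIF1A or EPAS1, and a constant partner, ARNT. With oxygen present, the prolyl hydroxylases encoded by EGLN1, EGLN2 and EGLN3 mark the alpha subunit, and the VHL ubiquitin ligase sends it to the proteasome. When oxygen is short the alpha subunit accumulates, and with ARNT it activates genes of blood vessel growth, glucose use and adaptation, VEGFA, ADM, EGLN3, BNIP3 and NDRG1 among them. Because this switch acts on the protein, HIF activity can change with no change in HIF1A mRNA. VEGFA and ADM are also known to respond to other stress pathways.

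The identifiers of all 26423 probes carry prefixes of a mouse array, so each value below is the signal of a mouse probe in samples labelled as human. The arrays had median deposited intensities of 77 and 85 in the berberine samples, against 90 and 62 in the control samples. After quantile normalization, levels are given as log2(intensity + 1). No detection call was used. The 528 genes named as mouse olfactory receptors gave a measure of background, with a median level of 6.05 and a 95th percentile of 9.24. It assumes that most of them are not expressed in these cells, which was not tested. Of the 10 members, only VEGFA had a mean above 9.24. Of 8 measured hepatocyte markers 0 did either, with albumin (ALB) at 8.10 and 8.20 with berberine and 8.65 and 8.46 in the control samples, and alpha-fetoprotein (AFP) at 4.67 and 4.93 against 4.51 and 4.89. The labelled cell type could therefore not be seen in its defining markers. Of 9 adipocyte and 8 endothelial markers 0 had means above 9.24. Summed over the list, hepatocyte markers read 897 to 904 normalized intensity units with berberine and 922 to 983 in the control samples, adipocyte markers 978 to 981 against 1020 to 1087, and endothelial markers 2101 to 2194 against 2110 to 2313. The adipocyte sum joins genes that differed in opposite directions. Of its 9 genes 0 passed limma's test across all genes, and 3 had an unadjusted p under 0.05, where 13.0% of all genes did. These were FABP4, a fatty acid carrier, at 7.10 and 6.94 with berberine, against 6.11 and 5.92 in the control samples (log2 fold change 1.00, limma adjusted p = 0.143), RETN (-1.20, limma adjusted p = 0.233) and ADIPOQ (-0.64, limma adjusted p = 0.35), all 3 named after their values were seen. Of the 8 hepatocyte markers 0 passed, and 1 had an unadjusted limma p under 0.05, ALB (log2 fold change -0.41, limma adjusted p = 0.35). Of the 8 endothelial markers 0 had such a p. The part of these marker genes in the results below was not tested. In such bulk samples, a change in the RNA of each cell and a change in the share of cells that make it cannot be told apart.

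VEGFA encodes the main growth factor of blood vessel endothelium, and it lies on chromosome 6 (chr6:43770211-43786487, GRCh38.p14, RefSeq). Its 1 probe was brighter in the berberine samples, with deposited intensities of 3589 and 4422, against 1538 and 1443 in the control samples. Both berberine values were more than any control value, and the groups were far apart. After normalization the levels were 12.06 and 12.08 with berberine and 10.37 and 10.48 in the control samples, a log2 fold change of 1.64 with an SE of 0.11 (3.12-fold, n = 2 per group). Over all 17778 genes, 42 had a larger rise. VEGFA was the 1 member whose signal stood above the background measure in both groups.

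The other measured ligands of the family differed less, by amounts that depended on the scaling. VEGFB, which acts through FLT1 and is known for roles in heart and fat, had deposited intensities of 355 and 446 with berberine, against 460 and 364 in the control samples, and the groups overlapped. Its normalized means were 8.75 ± 0.07 with berberine and 8.60 ± 0.08 in the control samples (SD, n = 2 each). The log2 fold change of 0.15 (SE 0.12) turned to -0.04 for the deposited values and to -0.15 after centring on the medians. VEGFC, the growth factor of lymphatic vessels, read 59 and 55 with berberine and 68 and 23 in the control samples, at the level of the dim background. Its log2 fold change was 0.15 with an SE of 0.22. It stood at 0.51 for the deposited values and 0.60 after scaling to the 75th percentile (0.43 above the median of all genes in both), and turned to -0.09 without control 2.

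**Figure D1:**
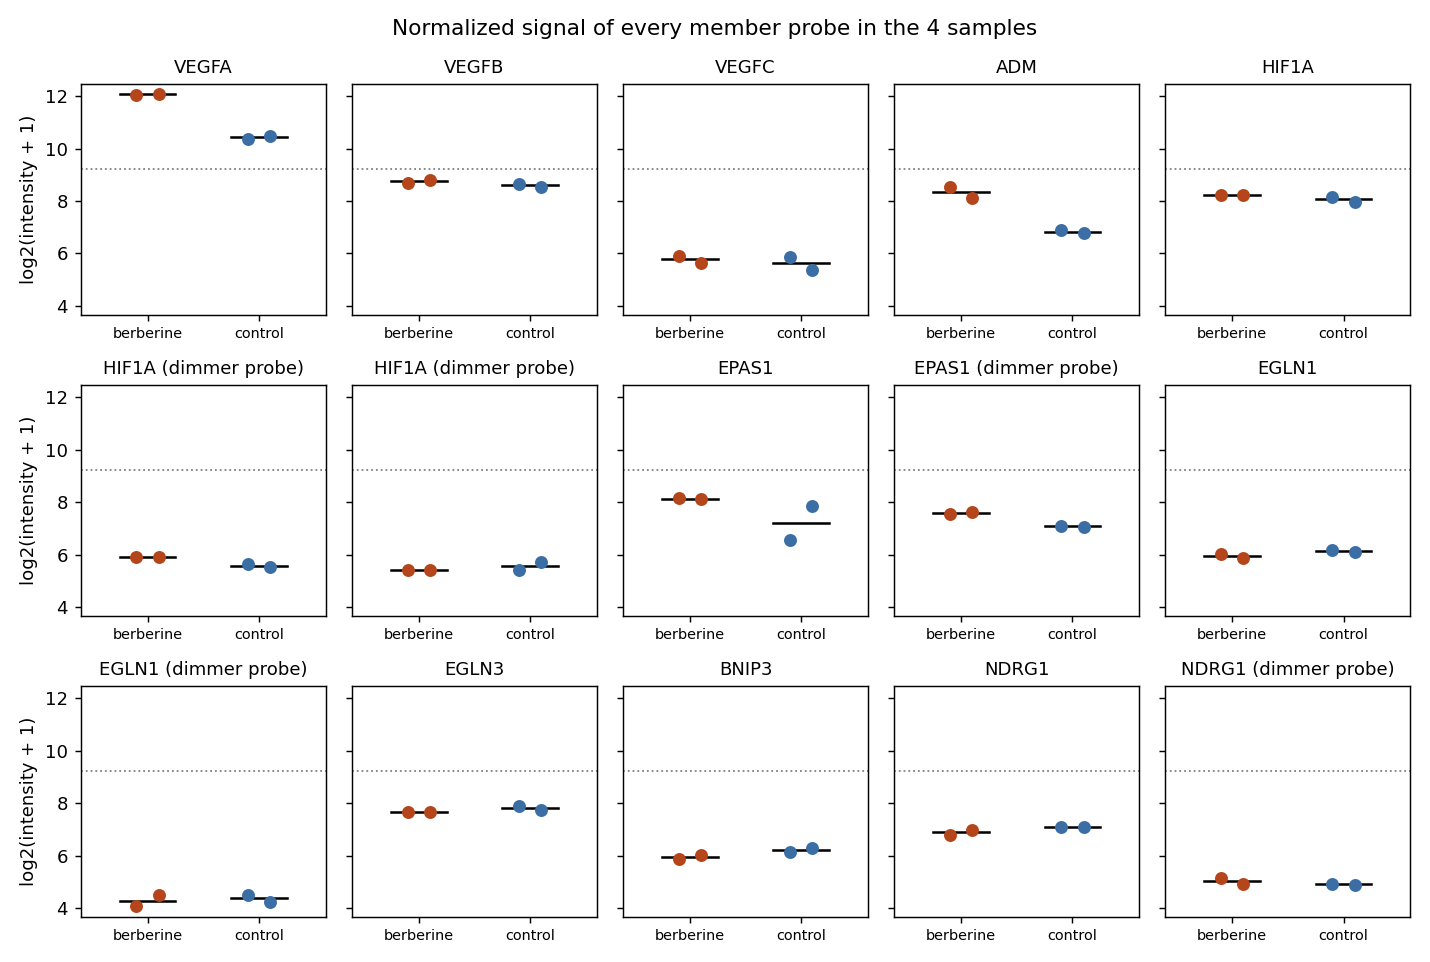
Normalized signal, as log2(intensity + 1), of each of the 15 member probes in the 2 berberine (orange) and 2 control (blue) samples; points are samples, bars are group means, and the dotted line is the olfactory receptor 95th percentile of 9.24. VEGFA lies above the line in all samples, and VEGFA, ADM and EPAS1 show the widest gaps between the groups.

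ADM encodes adrenomedullin, a secreted peptide that relaxes blood vessels and supports the vascular wall, and it lies on chromosome 11 (chr11:10305073-10307397, GRCh38.p14). Its 1 probe had deposited intensities of 317 and 287 with berberine and 135 and 92 in the control samples, so that both berberine values were over both control values. The normalized levels were 8.54 and 8.13 with berberine and 6.88 and 6.78 in the control samples. The log2 fold change was 1.50 with an SE of 0.18 (2.83-fold, n = 2 per group), and 55 genes had a larger rise. Both groups lay under 9.24, so the ADM fold compares signals that both lie in the range of background.

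Promoter sequence was examined because the probes of ADM and VEGFA read higher with berberine. The brightest probes of the HIF targets EGLN3, BNIP3 and NDRG1 did not. HIFs bind a core of 5 bases, ACGTG or GCGTG, and both were searched on both strands of the window from 250 bases before to 50 after the start of each gene (RefSeq, GRCh38.p14). The windows of 8 members were searched, all but those of VEGFA and NDRG1. ADM held 1 GCGTG, whose first base lies at -101 from the start. BNIP3 held 2 ACGTG matches, which are the 2 strands of 1 palindrome, and 4 GCGTG matches between -143 and -104, and EGLN3 held none. The windows of ADM and BNIP3 are printed because the ADM probe read higher with berberine and the BNIP3 probe did not. Both probes lay in the range of background. The BNIP3 mean of 6.08 was close to the olfactory receptor median of 6.05, so it cannot show whether BNIP3 RNA was higher. The windows run 5′ to 3′ along the gene's strand, with the matches in capitals.
ADM, chr11:10304823-10305122, plus strand: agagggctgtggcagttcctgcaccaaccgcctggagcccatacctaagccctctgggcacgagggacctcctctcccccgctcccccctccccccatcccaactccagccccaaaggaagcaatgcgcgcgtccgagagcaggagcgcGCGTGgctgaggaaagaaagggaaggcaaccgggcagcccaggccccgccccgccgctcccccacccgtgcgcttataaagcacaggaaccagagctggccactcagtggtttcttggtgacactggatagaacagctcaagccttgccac
BNIP3, chr10:131981874-131982173, minus strand: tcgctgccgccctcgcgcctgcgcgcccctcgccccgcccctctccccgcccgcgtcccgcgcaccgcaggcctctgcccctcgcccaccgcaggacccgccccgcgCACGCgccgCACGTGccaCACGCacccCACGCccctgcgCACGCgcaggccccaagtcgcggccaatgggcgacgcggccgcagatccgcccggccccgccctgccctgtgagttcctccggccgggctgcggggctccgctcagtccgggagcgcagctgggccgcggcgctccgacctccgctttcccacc
Among the others, VEGFB, VEGFC, EPAS1 and HIF1A held 1 GCGTG each (HIF1A in 1 of its 2 listed windows) and EGLN1 held 1 ACGTG. Of all 35116 promoter windows of this length, 48.4% held at least 1 of the cores (ACGTG in 21.4%, GCGTG in 36.5%), so a match is common. A match is a description of letters and was not tested as a binding site.

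Of the HIF alpha subunits, EPAS1 was higher with berberine by both of its probes, whether normalized or as deposited. All 3 HIF1A probes overlapped between the groups as deposited. After normalization the brightest HIF1A probe was higher with berberine without overlap, as was a dimmer one. The means of all these EPAS1 and HIF1A probes lay under 9.24. EPAS1 encodes HIF-2 alpha, known for control of erythropoietin and of vessel genes. The brighter EPAS1 probe had deposited intensities of 248 and 287 with berberine, against 107 and 217 in the control samples. The dimmer one read 164 and 202 with berberine and 156 and 112 in the control samples. Neither probe overlapped between the groups, as deposited or after normalization. The log2 fold changes were 0.94 for the brighter probe (SE 0.47) and 0.50 for the dimmer one (SE 0.12). The brighter probe's value rested on control 1, which read 6.55 after normalization where control 2 read 7.85, and without control 1 it was 0.28, while without control 2 it was 1.52.

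HIF1A encodes the alpha subunit present in most cells. Its brightest probe had deposited intensities of 259 and 308 with berberine and 325 and 238 in the control samples, which overlapped. The normalized log2 fold change was 0.18 (SE 0.12), and it turned to -0.09 with median centring. The dimmer HIF1A probes were at 0.33 and -0.17 after normalization, with levels between 5.39 and 5.91 in all samples. The 3 probes thus did not share a direction after normalization. As deposited, their log2 fold changes were 0.02, 0.51 and 0.15, where the median of all genes was 0.08.

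EGLN1 and EGLN3 encode prolyl hydroxylases that sense oxygen, and EGLN3 is itself a HIF target. The brighter EGLN1 probe read 66 and 63 with berberine and 87 and 51 in the control samples as deposited, and the dimmer one 20 and 25 against 30 and 3. Both probes overlapped between the groups on this scale and lay in the dim background. The EGLN1 log2 fold change was -0.19 (SE 0.12), and for the deposited values it lay -0.13 from the median of all genes. EGLN3 had deposited intensities of 181 and 211 with berberine, against 269 and 200 in the control samples, with overlap. Its normalized means were 7.67 ± 0.01 with berberine and 7.82 ± 0.09 in the control samples (SD, n = 2 each), a log2 fold change of -0.15 (SE 0.11).

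BNIP3 and NDRG1 are widely used markers of HIF activity. After normalization, BNIP3 and the brighter NDRG1 probe were slightly lower with berberine. Both signals lay in the range of background, with means of 6.08 for BNIP3 and 6.99 for NDRG1. BNIP3, a mitochondrial protein of the BCL2 family with a role in mitophagy, read 58 and 67 with berberine and 80 and 61 in the control samples as deposited. These values overlapped, and the normalized levels of 5.88 and 6.01 with berberine, against 6.13 and 6.29 in the control samples, did not. The log2 fold change was -0.27 with an SE of 0.13. NDRG1, a stress-responsive gene that hypoxia is known to induce, read 105 and 134 with berberine and 154 and 121 in the control samples by its brighter probe. Those deposited values overlapped, and the log2 fold change of NDRG1 was -0.21 (SE 0.13). The dimmer NDRG1 probe, at deposited intensities of 39 and 35 with berberine and 40 and 12 in the control samples, was at 0.13 after normalization. EGLN3, BNIP3 and NDRG1 had negative log2 fold changes under the 3 other scalings, with a pseudocount of 50 and without any 1 sample, and NDRG1 stood at -0.04 with the mean of its probes. The remaining settings change the test and not the fold change.

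Set side by side, VEGFA and ADM stood at 1.64 and 1.50, EPAS1 at 0.94, and the other 7 members between -0.27 and 0.18. The median over the 10 members was 0.15, against -0.01 over all genes, and the median over the 8 members other than VEGFA and ADM was 0.00. Both berberine samples lay above both controls for 5 members, as they did for 21.7% of all genes. Both lay below for 4 members, as they did for 23.3% of all genes. With deposited values, 4 of the 15 probes did not overlap, all higher with berberine, and these were the probes of VEGFA, ADM and EPAS1. The share of all probes that did so on this scale is not given here, and the shares above are of genes after normalization. In limma, 0 of 10 members had an adjusted p under 0.05 over all genes, where 0.0506% of genes did, and 2 had an unadjusted p under 0.05, where 13.0% of genes did. With an intensity trend in limma, 2 members passed, VEGFA and ADM, where 1.46% of genes did. Since VEGFA and ADM were chosen on this contrast, nothing is read from these counts.

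**Figure D2:**
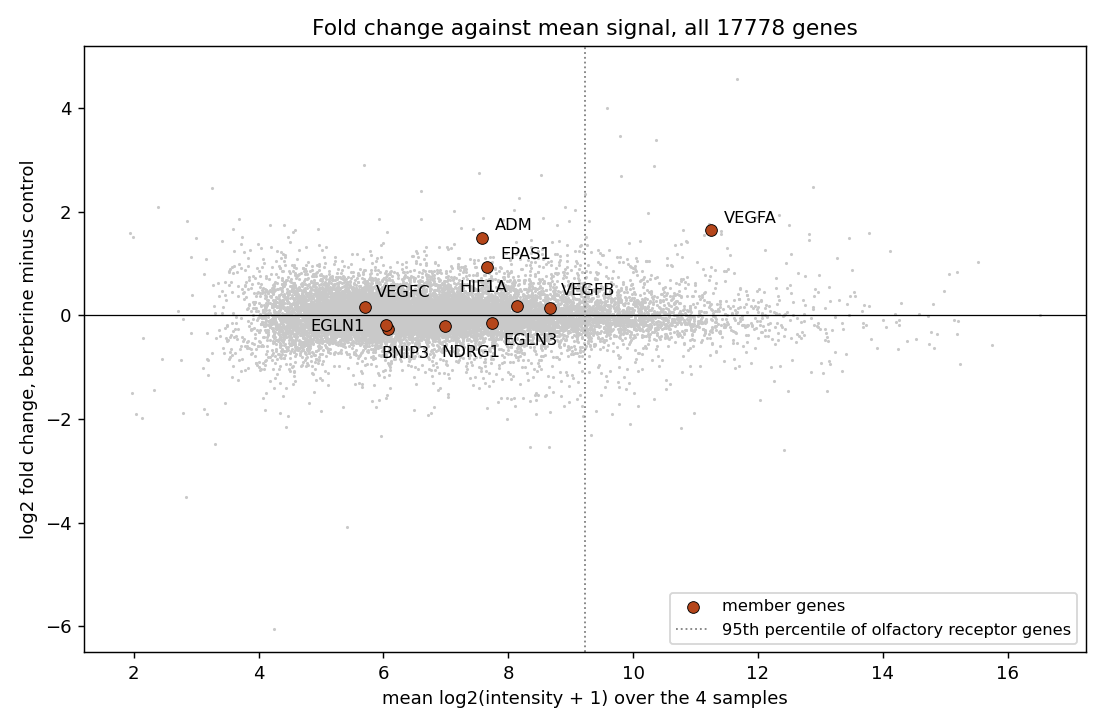
Log2 fold change, berberine minus control, against the mean log2(intensity + 1) over the 4 samples for all 17778 genes (grey) and the 10 members (orange); the dotted line is the olfactory receptor 95th percentile of 9.24. VEGFA at 1.64 lies to the right of the line, while ADM at 1.50, EPAS1 at 0.94 and the other 7 members lie to its left.

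The scaling of the arrays moved these values without turning the VEGFA or ADM difference. Scaling to the 75th percentile moved the median of all genes to 0.17, and the fold changes relative to that median were 1.34 for VEGFA and 1.35 for ADM. With values as deposited the same distances from the median of all genes were 1.34 and 1.35. Relative to that median VEGFB stood at -0.12 and HIF1A at -0.06, where quantile normalization gave 0.16 and 0.19, so the small positive values of both depend on the scaling. The deposited values, median centring and the 75th percentile differ by a shift nearly common to all genes, so their distances from the median of all genes are nearly the same. Leaving out 1 sample at a time gave 1.59 to 1.72 for VEGFA and 1.33 to 1.72 for ADM.

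**Figure D3:**
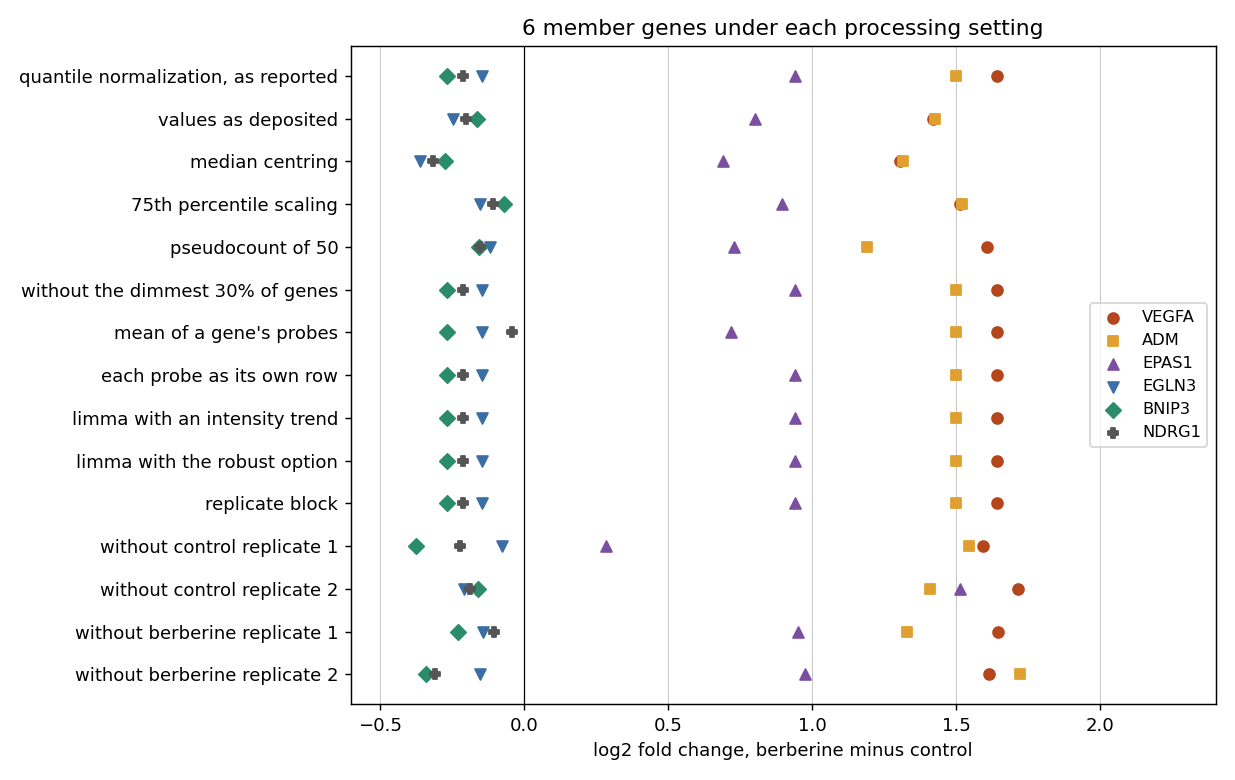
Log2 fold change, berberine minus control, of VEGFA, ADM, EPAS1, EGLN3, BNIP3 and NDRG1 under the reported processing (top) and 14 other settings. VEGFA spans 1.31 to 1.72 and ADM 1.19 to 1.72, EPAS1 spans 0.28 to 1.52, and EGLN3, BNIP3 and NDRG1 lie below 0 throughout; settings that change only the test leave the points where they were.

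To see whether VEGFA and ADM moved with other HIF targets, 55 further targets were listed, of which 48 were measured. Only BHLHE40 passed the test, where 0.0506% of all genes did. The list was chosen with earlier results of these data known, so the presence of BHLHE40 in it was not blind to its value. BHLHE40, a transcriptional repressor induced by hypoxia and by other signals, rose 6.51-fold, to 9.87 and 9.90 with berberine, against 7.17 and 7.19 in the control samples (limma adjusted p = 0.043). Over 14 other settings its limma adjusted p ran between 0.00254 and 0.611, and it passed in 5 of them, though its log2 fold change stayed between 2.36 and 2.75. The control level lay in the background range. The other 47 targets did not pass, and 0 fell in the test. At an unadjusted limma p under 0.05 there were 5 higher and 1 lower of the 48, where 13.0% of all genes had such a p in either direction. The median log2 fold change of the 48 was 0.02, with 25 above 0 and 23 below, and 42 of the 48 (87.5%) lay within 0.5 of no change, against 87.2% of all genes. These counts hold for quantile normalization. For the deposited values 23 of the 48 stood above the median of all genes. ANKRD37 then stood at 1.25 from that median, ERO1L at 0.70 and PDK1 at 0.67. Their mean normalized levels of 4.54, 4.11 and 4.82 lay under the olfactory receptor median of 6.05. Only 3 of the 48 had a mean above 9.24, as did 1626 of all 17778 genes. Most of these targets thus gave signals in the range of background, which limits what their values can show.

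Among 16 measured targets of glucose uptake and glycolysis, 0 passed the test. HK1, a hexokinase, read 8.45 and 8.23 with berberine and 7.64 and 7.70 in the control samples (log2 fold change 0.66, limma adjusted p = 0.234), but its dimmer probe was at -0.34. TPI1, triosephosphate isomerase, read 9.33 and 9.16 against 8.76 and 8.69 (0.52, limma adjusted p = 0.27). In both genes the groups did not overlap, with berberine higher as for 21.7% of all genes, and both means lay under 9.24. The distances from the median of all genes for the deposited values were 0.45 and 0.24. ALDOC and PFKL, further enzymes of glycolysis, stood at 0.27 and 0.20, and at 0.12 and 0.32 from that median for the deposited values. The glucose transporter SLC2A1, a classic HIF target, stood at -0.09 (-0.20 from that median for the deposited values) and was named outside the rule after its value was seen. The brightest members of the list were PKM2, ALDOA and TPI1, with PKM2 (pyruvate kinase) at 0.20 and ALDOA (aldolase) at 0.27. For the deposited values PKM2 and ALDOA turned to -0.10 and -0.02 from the median of all genes, so both small positive values depend on quantile normalization.

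Of 32 other measured HIF targets, 31 did not pass. DDIT4, an inhibitor of mTORC1 that hypoxia induces, read 8.42 and 8.31 with berberine and 7.73 and 7.97 in the control samples (0.52, limma adjusted p = 0.307). KDM3A, a histone demethylase under HIF control, read 7.87 and 7.78 with berberine, against 8.18 and 8.14 in the control samples (-0.34). PLOD2, a collagen lysyl hydroxylase, stood at -0.34, TGFB3 at 0.47 and the receptor kinase MET at 0.55. The probe named CAR9, the mouse name of carbonic anhydrase 9 and a target widely used as a mark of hypoxia, was bright, at 10.93 and 10.79 with berberine and 10.80 and 10.89 in the control samples. Its log2 fold change was 0.02 after quantile normalization, but -0.23 for the deposited values, -0.34 with median centring and -0.14 with scaling to the 75th percentile, each -0.31 from the median of all genes. The related CAR12 stood at -0.04 (-0.31 from that median for the deposited values).

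**Figure D4:**
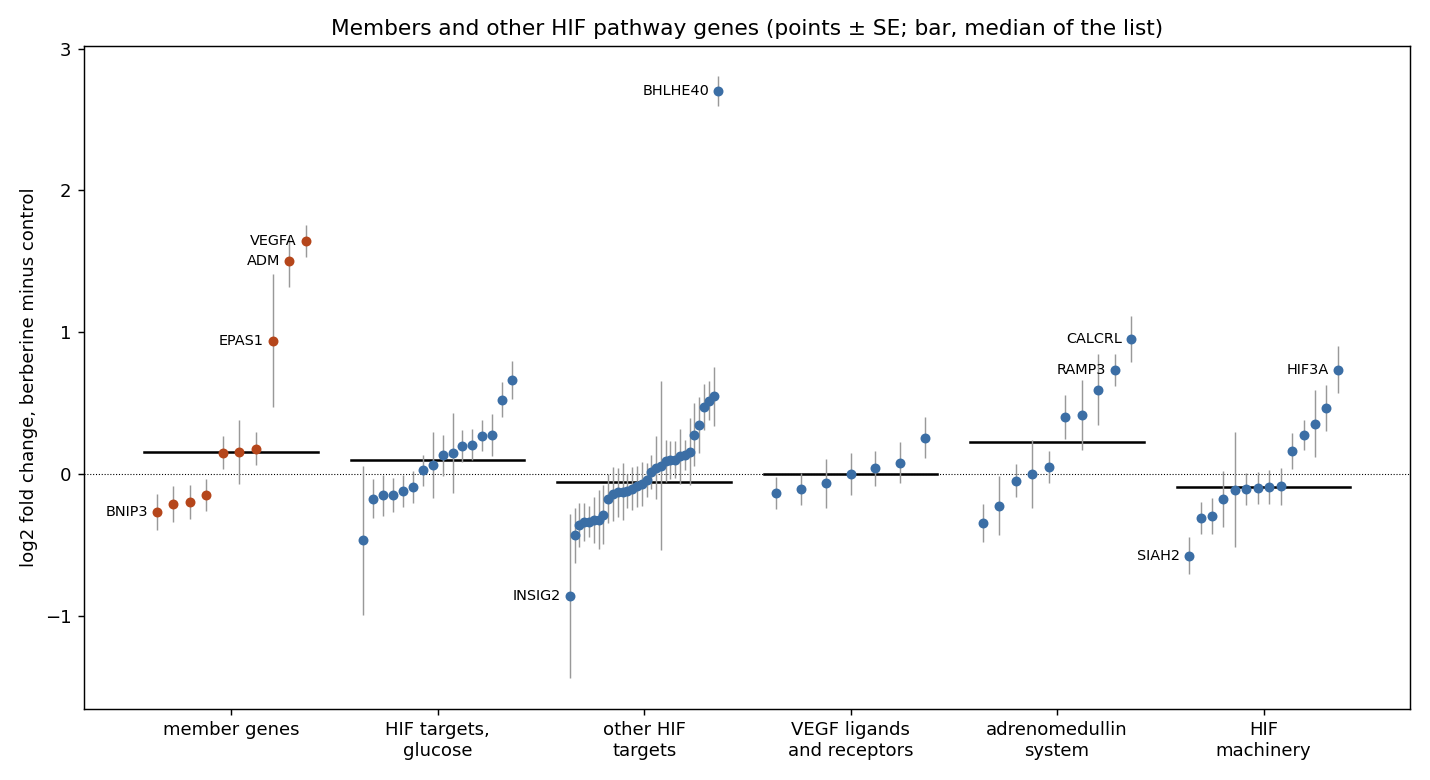
Log2 fold change, berberine minus control, of the 10 members (orange) and of 5 lists of other HIF pathway genes (blue); points are genes in rising order, whiskers are ± 1 SE from the limma fit, and black bars are list medians. BHLHE40 at 2.70 exceeds VEGFA and ADM, and most other targets gather around 0.

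The values for the receptors of the VEGF ligands depended on the scaling. Of 7 further ligands and receptors 0 passed the test or had an unadjusted limma p under 0.05, where 13.0% of all genes did, and the median was 0.00. NRP2, a co-receptor of VEGFC, was bright, with 12.11 and 12.14 with berberine and 12.01 and 11.73 in the control samples (0.25, SE 0.14, but -0.02 from the median of all genes for the deposited values). KDR and FLT4, the main receptors of vascular and lymphatic endothelium, stood at -0.13 and -0.11, and at -0.37 and -0.36 from that median for the deposited values. The co-receptor NRP1 was at 0.08, with a dimmer probe at -0.57, FLT1 at -0.06 and the ligand PGF at 0.04. For the deposited values NRP1 turned to -0.06 and FLT1 to 0.26 from that median, and PGF stood at 0.05.

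In the adrenomedullin system (10 measured genes besides ADM), 0 passed the test, and 2 had an unadjusted limma p under 0.05, both higher, where 13.0% of all genes had such a p. These were CALCRL and RAMP3, which encode the receptor and an accessory protein that together bind adrenomedullin. CALCRL read 9.46 and 9.63 with berberine, against 8.75 and 8.44 in the control samples (0.95, SE 0.16, limma adjusted p = 0.192). RAMP3 read 7.44 and 7.56 with berberine and 6.79 and 6.74 in the control samples (0.73, SE 0.11, limma adjusted p = 0.17). The groups did not overlap for either gene, with berberine higher as for 21.7% of all genes, and neither passed in any of 14 other settings, where CALCRL ran between 0.64 and 1.11 and RAMP3 between 0.54 and 0.80. PAM, the enzyme that amidates adrenomedullin to its active form, stood at 0.40, CALCA at 0.59, CALCR at 0.42, the decoy receptor CXCR7 at -0.35 and the related peptide ADM2 at -0.05. From the median of all genes, CALCA stood at 1.62 and ADM2 at -0.26 for the deposited values. The mean level of CALCA was 4.80, under the olfactory receptor median of 6.05. The median of the list was 0.23, and between 0.12 and 0.33 under the other scalings. Of these 10 genes 0 had a mean above 9.24, with CALCRL at 9.07 and RAMP3 at 7.13. The berberine values of CALCRL, at 9.46 and 9.63, did lie above 9.24. Most signals of this list thus lay in the range of background, which limits what their values can show.

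Of 14 measured genes of the HIF machinery, 0 passed the test, with 2 higher and 1 lower at an unadjusted limma p under 0.05, where 13.0% of all genes had such a p in either direction. HIF3A, another alpha subunit, read 5.63 and 5.57 with berberine and 5.04 and 4.69 in the control samples (0.73, limma adjusted p = 0.262), and CREBBP, a coactivator, stood at 0.47. SIAH2, a ubiquitin ligase that acts on the hydroxylases, read 5.50 and 5.72 with berberine, against 6.17 and 6.20 in the control samples (-0.58, limma adjusted p = 0.262). These 3 lay in the dim background. CUL2, of the VHL ligase, stood at -0.31 by its brighter probe and at 0.17 by its dimmer one. The constant partner ARNT stood at -0.30 (-0.56 from the median of all genes for the deposited values). The remaining prolyl hydroxylase EGLN2 was at 0.27, but at -0.03 from that median for the deposited values. HIF1AN, an asparaginyl hydroxylase that blocks HIF activity, was bright and stood at -0.11 (-0.41 from that median for the deposited values). The median of the list was -0.10, and it lay -0.09 from the median of all genes after quantile normalization and -0.06 from it under the other scalings.

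The genes whose pattern over the 4 samples lay nearest to VEGFA and ADM were sought among 1626 genes with means above 9.24. Likeness was the Euclidean distance between centred log2 values, over 4 samples. Nearest to VEGFA were EPC1 at a distance of 0.01, ZFP36L1 at 0.08, and ANTXR2 and CEBPB at 0.16, with log2 fold changes from 1.58 to 1.64. Nearest to ADM were ARHGAP21 at 0.21, TGFB1 at 0.28, and KHDRBS3 and CSNK1A1 at 0.32, with log2 fold changes from 1.35 to 1.44. With so few samples, a distance of this kind mostly measures the size of the difference between the groups.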

How the data were processed

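Total RNA was labelled with Cy5 for one-colour arrays, per the labels' protocols. In the deposited table, each intensity is a whole number on a linear scale, and some are below 0. How the authors scanned, background-corrected or normalized the arrays is not stated by them in the labels. The platform annotation named 20377 of 26423 probes, and the other 6046 were left out of the gene test. Intensities were quantile normalized over all probes, any value still under 0 became 0, and values were put on the log2(value + 1) scale. Each gene was represented by its probe with the highest mean. The gene test was that of limma 3.58.1 (R 4.3.3; lmFit, eBayes, 2 residual degrees of freedom, 2-sided), checked on simulated data. P-values were adjusted by Benjamini-Hochberg over all 17778 genes, and 0.05 was the threshold. An exact permutation test of 2 against 2 cannot give a p below 0.333. Reference windows came from RefSeq tables of GRCh38.p14. Plots were made in Python 3.11.15 with matplotlib 3.10.9.

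The members, the gene lists and the settings were chosen with earlier results of these data known. Named genes are the members, up to 6 genes of each of 5 lists with the smallest p, the 3 brightest of each list, and the 4 genes nearest in pattern to VEGFA and to ADM. Listed genes without a named probe were not analysed here. The settings tried were other scalings, a pseudocount of 50, a filter on the dimmest 30% of genes, each probe as its own row, averaged probes, an intensity trend, the robust option, the replicate number as a block, and each sample left out. The number of arrays limits the precision, and no depth applies to intensities.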

Additional observations from a re-analysis of the deposited data

How the results depend on the processing

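Over all genes, 9 passed limma's test (8 higher, 1 lower with berberine). The count was 2 with values as deposited (2 higher, 0 lower), 0 with median centring, scaling to the 75th percentile or each probe as its own row, 251 with a pseudocount of 50, 138 without the dimmest 30% of genes, 260 with an intensity trend, and 0 without any 1 of the 4 samples. Leaving out 1 sample puts a single sample in 1 group, which is assumed to vary like the other group, so those counts of 0 say little about stability. At an unadjusted limma p under 0.05, the settings with 0 had between 1380 and 3101. Of the 79 other HIF pathway genes, BHLHE40 was the 1 that passed, and 0 did with values as deposited, median centring, 75th percentile scaling, each probe as its own row, or any 1 sample left out. The cause of these changes was not tested.

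The replicate number as a block gave 0 genes over all and 0 in the HIF pathway, with 1878 genes at an unadjusted limma p under 0.05. Nothing in the labels says that samples with the same number share more than that number. Their deviations from the group means correlated at 0.09 across genes, which cannot decide whether they shared a batch. The block left all fold changes as they were.

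VEGFA stood at 1.42 as deposited, 1.31 with median centring and 1.51 with 75th percentile scaling, and ADM at 1.19 with a pseudocount of 50. With 1 sample left out VEGFA ran between 1.59 and 1.72 and ADM between 1.33 and 1.72. The median of the members turned to -0.12 with median centring (-0.09 from the median of all genes). The median of the 48 other HIF targets was -0.0784 with median centring, 0.128 with 75th percentile scaling, which moved the median of all genes to -0.03 and 0.17, so that the list lay -0.04 from that median under both. It was between -0.0375 and 0.0281 with 1 sample left out. The filter on dim genes removed VEGFC. The 9 members other than VEGFA had signals in the background range, which limits what their values can show.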
